A study of Mus musculus with 10 samples.

Results

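Of the 6995 peaks that the authors called for the corepressor protein Rcor2 in the cortical midline of mouse embryos, 2515 were placed in gene bodies, and in 1448 of these (57.6%, 95% Clopper-Pearson interval 55.6 to 59.5%) Rcor2 did not stand above input chromatin. The peaks were chosen on their measured heights: the lower of the 2 Rcor2 heights was not greater than the higher of the 2 input heights. The interval covers counting error only, since peaks of 1 gene are not independent and all peaks share the same libraries. Other forms of the rule, given in the last section, changed the number more. A height is the read coverage at the peak in 1 library. The other 1067 gene body peaks, in which the lower Rcor2 height was above both input heights, serve for comparison.

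All tissue was cortical midline of the strain C57/Bl6 on embryonic day 14.5. The chromatin libraries came from wild type embryos: 2 were precipitated with a ProteinTech antibody to Rcor2, 2 with a Cell Signalling rabbit IgG that serves as a mock antibody, and 2 were total input. RNA was sequenced from 2 control libraries, Rcor2f/f (CTL), and 2 conditional knockout libraries, Rcor2f/f/EMX1-iCRE (cKO), so that both groups carry the floxed allele. EMX1-driven Cre acts in the dorsal telencephalic lineage, so cells of other origin in the dissected tissue keep Rcor2. The labels do not say whether replicates are separate embryos, litters or pools, and p-values therefore measure only the spread between these libraries.

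Rcor2 belongs to the CoREST family of scaffold proteins, which tie the histone demethylase Kdm1a (LSD1) to histone deacetylases and bring the pair to chromatin through DNA-binding factors such as Rest. In chromatin immunoprecipitation, a mock IgG shows what sticks without a specific antibody, whereas input shows how much sheared chromatin from each place entered the experiment. Open or easily sheared chromatin, and sequence present in several copies, can be rich in input as well. A peak can therefore stand far above IgG and still not exceed input.

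Sequence was at hand only where a peak met a RefSeq promoter window, which runs from 250 bases before a transcript start to 50 bases after it. Of the 1448 peaks, 9 overlapped one of the 32851 windows and 3 had their summit inside one, and none held an annotated miRNA hairpin. The 4 longest stretches before a start are given here (RefSeq, build GRCm38.p6, the assembly of mm10). They show how these 4 differ in base composition and cannot stand for the 1448 peaks. Each is the part of the peak that lies inside the window and before the start, on the plus strand, with every CpG dinucleotide in capitals.

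Otx1 peak, chr11:21998249-21998478, before a start of the predicted gene Gm32517: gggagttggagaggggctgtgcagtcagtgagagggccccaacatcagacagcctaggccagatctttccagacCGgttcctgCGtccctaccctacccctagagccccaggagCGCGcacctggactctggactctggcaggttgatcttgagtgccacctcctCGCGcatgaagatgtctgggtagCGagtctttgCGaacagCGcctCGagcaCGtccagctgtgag
3300002I08Rik peak, chr2:150311200-150311404, before a start of the predicted gene Gm10130: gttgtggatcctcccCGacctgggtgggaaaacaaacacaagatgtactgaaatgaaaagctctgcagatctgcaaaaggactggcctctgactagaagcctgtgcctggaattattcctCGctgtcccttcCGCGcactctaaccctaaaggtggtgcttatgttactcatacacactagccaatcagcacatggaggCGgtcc
Ccdc60 peak, chr5:116278540-116278683, before a start of the predicted gene Gm52827: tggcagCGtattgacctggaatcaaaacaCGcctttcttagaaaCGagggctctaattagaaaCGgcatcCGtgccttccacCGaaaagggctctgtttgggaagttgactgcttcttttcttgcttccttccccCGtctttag
Rnf114 peak, chr2:167503193-167503303, before a start of Rnf114 itself: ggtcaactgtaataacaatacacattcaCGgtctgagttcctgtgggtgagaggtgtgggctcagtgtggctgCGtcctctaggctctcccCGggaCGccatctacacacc

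The Otx1 stretch was the richest of these, with 61.3% G and C and 11 CpG in 230 bases, and the Ccdc60 stretch the poorest in G and C, with 48.6% and 7 CpG in 144 bases. The stretches of 3300002I08Rik and Rnf114 had 50.7% and 55.9%, and the median over all windows was 52.7%. GGACAGC and TCAGCAC, parts of the motif that Rest binds, were searched on both strands. GGACAGC occurred in 1 of the 9 windows and in 6.56% of all windows, and TCAGCAC in 1 of the 9 and in 5.12%; both matches lay in the window of Gm10130. A match of letters is a description and not a binding site.

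At the Otx1 peak the Rcor2 heights were 18 and 20, the IgG heights 4 and 6 and the input heights 16 and 19. The Ccdc60 peak had Rcor2 heights of 8 and 14, IgG heights of 5 and 2 and input heights of 22 and 14. At Otx1 Rcor2 and input were nearly level, while at Ccdc60 input stood at or above Rcor2 in every pairing of libraries. At both peaks IgG was the lowest of the 3 kinds of library.

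Over the 1448 peaks, the median height was 12 and 18 in Rcor2 replicates 1 and 2, 4 and 3 in the IgG replicates and 15 and 14 in the input replicates. In the 1067 above-input peaks the medians were 14 and 19 for Rcor2, 4 and 3 for IgG and 9 and 9 for input. The selected peaks thus had higher input and slightly lower Rcor2, at the same IgG. These are the values that chose the peaks, so they carry no test, and how much of the choice came from either side is fixed by the rule.

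**Figure D1:**
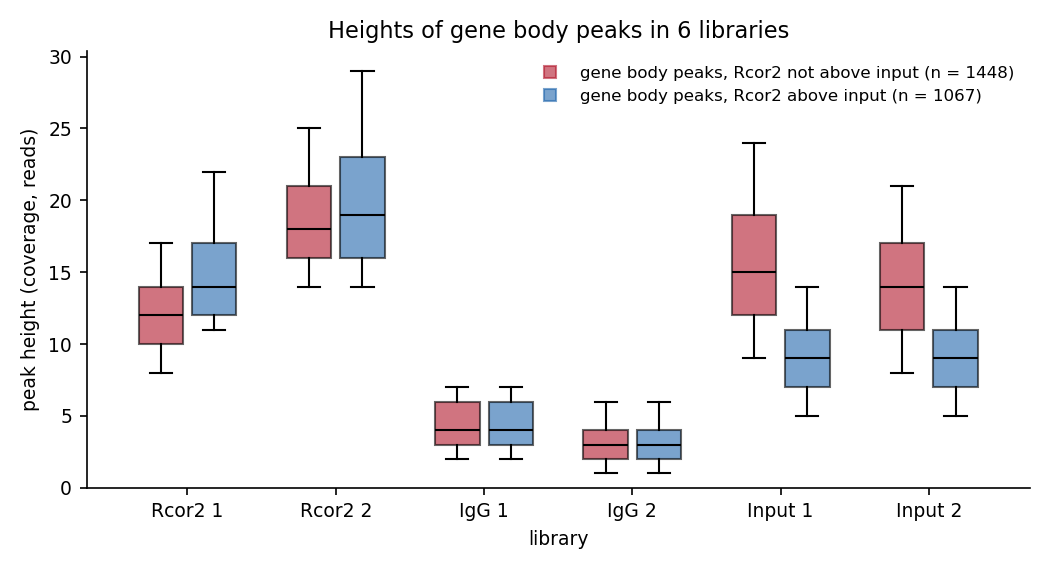
Height of gene body peaks (coverage in reads, vertical axis) in each of the 6 chromatin libraries (horizontal axis). Boxes show quartiles with the median line and whiskers the 10th and 90th percentiles, for the 1448 peaks with Rcor2 not above input (red) and the 1067 with Rcor2 above input (blue); the input medians are 15 and 14 against 9 and 9, while the IgG medians are 4 and 3 in both.

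Replicate 1 of the Rcor2 libraries set the choice in most peaks. Its height was lower than that of replicate 2 in 1300 of the 1448 peaks (89.8%), against 82.0% of the above-input peaks and 87.0% of all peaks. In 890 peaks (61.5%) Rcor2 replicate 2 stood above both inputs, whereas replicate 1 did so in 49 (3.38%). Only 225 peaks (15.5%) had both Rcor2 heights at or below both input heights, and in 567 (39.2%) the mean Rcor2 height was not above the mean input height. The heights are not scaled for sequencing depth, which was not analysed here for the chromatin libraries, so a difference in depth between libraries enters the choice and cannot be told apart from a difference in binding. With each library's heights divided by their median, the rule took in 1722 gene body peaks, among them all 1448.

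The lower Rcor2 height was above the higher IgG height in 1426 of the 1448 peaks (98.5%). The lower input height, too, was above the higher IgG height in 1379 (95.2%), against 77.6% of the above-input peaks. The fold enrichment over IgG, which is the authors' value for each peak, had a median of 3.83 in the selected peaks and of 4.03 in the above-input peaks. Peak length had a median of 222 bases against 246. A stringent −log10 q of at least 5, also the authors' value, was reached by 48.0% of the selected peaks and 61.9% of the above-input peaks. Fold, q and length derive from the same Rcor2 reads as the rule and are given as a description.

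**Figure D2:**
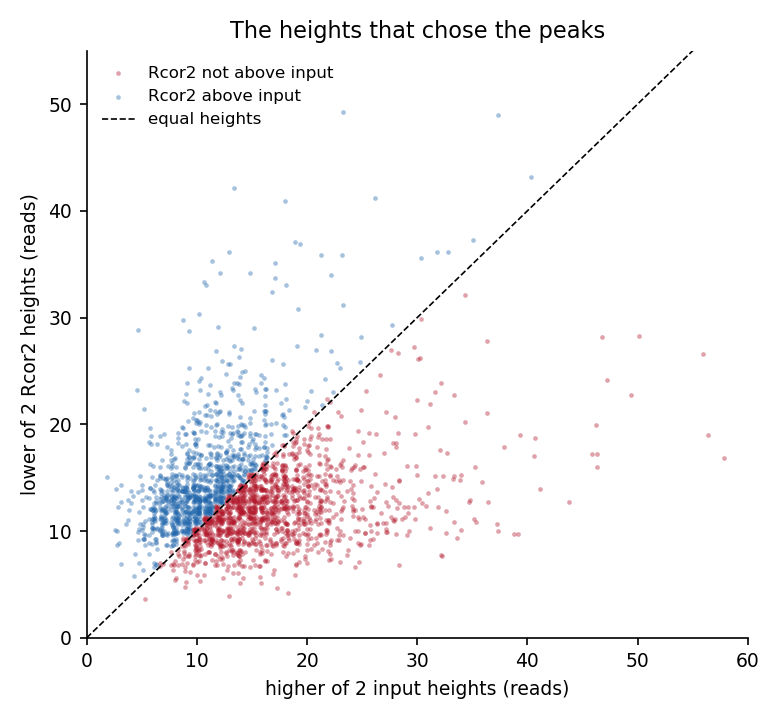
Lower of the 2 Rcor2 heights (vertical axis, reads) against the higher of the 2 input heights (horizontal axis, reads) for 2515 gene body peaks, shifted by a small random amount so that equal points separate. Peaks on or below the dashed line of equal heights are the 1448 selected (red); 199 of them lie exactly on the line, and input reaches 58 reads.

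The selection has no gap at its edge. In 199 peaks (13.7%) the lower Rcor2 height equalled the higher input height. Draxin, which encodes a secreted repellent of midline axons, held such a peak, with Rcor2 heights of 22 and 42, IgG heights of 2 and 4 and input heights of 22 and 18. Peaks in Elfn2 and Sfxn5 were equal as well, at 30 and 18 reads. Just outside were peaks in Tspan18 and Prex1, where the lower Rcor2 height was 1.04 times the higher input height, and in Lrp8 and Scrn1, at 1.05 times.

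Peaks in Lrp8 and Notch1 were among those that stood highest over IgG. Lrp8 encodes a receptor of the neuronal guidance protein reelin. Its peak (chr4:107820911-107821561) had Rcor2 heights of 26 and 70, IgG heights of 7 and 4 and input heights of 30 and 22, with a fold of 9.94. Notch1 encodes a receptor that keeps neural progenitors undifferentiated. Its peak (chr2:26501005-26501642), 2.62 kb from an annotated start, had Rcor2 heights of 27 and 51, IgG heights of 4 and 6 and input heights of 28 and 20, with a fold of 8.83. In both peaks Rcor2 replicate 2 was far above both inputs and replicate 1 fell just short of the higher input. Peaks in Tnrc18, Eml1 and Elfn2 followed with folds of 8.16, 7.99 and 7.99, and Eml1 showed the widest spread between Rcor2 replicates of these, at 15 and 41.

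At the other end, the lower Rcor2 height was a small part of the higher input height. The Tgfbr3 peak, in a gene for a co-receptor of transforming growth factor beta, had Rcor2 heights of 4 and 20, IgG heights of 4 and 2 and input heights of 18 and 15, a ratio of lower Rcor2 to higher input of 0.222. The Pomc peak (chr12:3960076-3960225), in the gene for a hormone precursor, had Rcor2 heights of 8 and 15, IgG heights of 4 and 1 and input heights of 27 and 32, a ratio of 0.25. At Pomc both inputs exceeded both Rcor2 libraries, while at Tgfbr3 the Rcor2 replicates lay on either side of the inputs. Peaks in Tbc1d5, the alpha-catenin gene Ctnna3, the urate transporter gene Slc2a9 and the semaphorin gene Sema3d had ratios of 0.25 to 0.256. The highest input of all, singled out after the values were seen, was at a peak in Fto, which encodes an RNA demethylase, with input heights of 58 and 42 against Rcor2 heights of 17 and 29.

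A few peaks were tall in every library. Both IgG heights were at least 10 in 5 of the 1448 peaks, and in 6 of the 1067 above-input peaks. The Abcb10 peak had Rcor2 heights of 32 and 44, IgG heights of 15 and 14 and input heights of 34 and 32, and the Map2k6 peak heights of 28 and 41, 16 and 16, and 29 and 36. Another was in Pxylp1 and the last 2 in Erdr1 on chromosome Y. The Abcb10, Map2k6 and 1 of the Erdr1 peaks had 3 of the 4 greatest pileups of the selected peaks, but the folds of all 5 over IgG were 1.97 to 2.75, below the median of 3.83.

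The authors kept gene body peaks apart from promoter peaks, which limits how many can lie near a start. Few of the selected peaks were near a start of their gene. Of 1074 with an annotated start for their gene, 9 summits (0.838%) lay within 2 kb of one, 191 (17.8%) within 10 kb and 557 (51.9%) within 50 kb. For the above-input peaks the shares were 0.608%, 18.1% and 52.4% of 823, so distance hardly separated the 2 kinds of gene body peak. Summits lay past the middle of the gene, toward its 3′ end, in 49.3% (95% Clopper-Pearson interval 46.3 to 52.4%) against 44.5% (41.0 to 47.9%). The genes were long, with a median RefSeq span of 172582 bases over the selected peaks against 154294 bases over the above-input peaks. Peaks of 1 gene are not independent, and these intervals cover counting error only.

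Selected peaks often had another peak close by. Another peak lay within 1 kb of 288 (19.9%, 17.9 to 22.0%), against 13.5% (11.5 to 15.7%) of the above-input peaks. Of 230 pairs of neighbouring gene body peaks within 1 kb, both were selected in 48.7%, 1 in 38.3% and none in 13.0%. By chromosome, the selected share of gene body peaks ran from 45.5% on chromosome 10 (46 of 101) to 67.7% on chromosome 5 (157 of 232) among the autosomes. Chromosome 5 carries Auts2, with 24 of its peaks. The same rule met 69.6% of promoter peaks, 58.2% of distal and 54.3% of intergenic peaks, against 57.6% in gene bodies and 59.7% over all peaks.

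The 1448 peaks were named for 924 genes by the authors. A single peak was found in 659 genes, 2 or more in 265 and 5 or more in 29. Of the 924, 307 also had an above-input gene body peak, and 617 had none.

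Auts2, which encodes a nuclear and cytoskeletal regulator of neuronal development and spans 1106 kb, held the most: 24 of its 26 gene body peaks were selected. Over these 24, Rcor2 replicate 1 ran from 7 to 17 with a median of 12.5, and replicate 2 from 12 to 31 with a median of 18.5. The IgG medians were 5 and 3 and the input medians 15.5 and 14.5. No single tall site stood out: the folds over IgG lay between 2.80 and 5.33, and the peaks were spread from 21.0 to 954.2 kb from the lower-coordinate end of the gene. Several clustered, with 4 of them between 386.3 and 391.3 kb.

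Tenm4, which encodes a teneurin adhesion protein of axon guidance and myelination, had 19 selected of 27 gene body peaks in a span of 739.9 kb. Its Rcor2 medians were 12 and 17, its IgG medians 5 and 4 and its input medians 15 and 13. The other genes with the most selected peaks were Nfia, a transcription factor of glial and callosal development (9 of 14), Ephb2, an ephrin receptor of axon guidance (8 of 9), the urea transporter gene Slc14a2 (7 of 11) and Myo10, a motor protein of filopodia (7 of 10). Per length, Auts2 had 2.35 gene body peaks for each 100 kb, fewer than Tenm4 with 3.65, Ephb2 with 4.77 or Myo10 with 5.23.

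**Figure D3:**
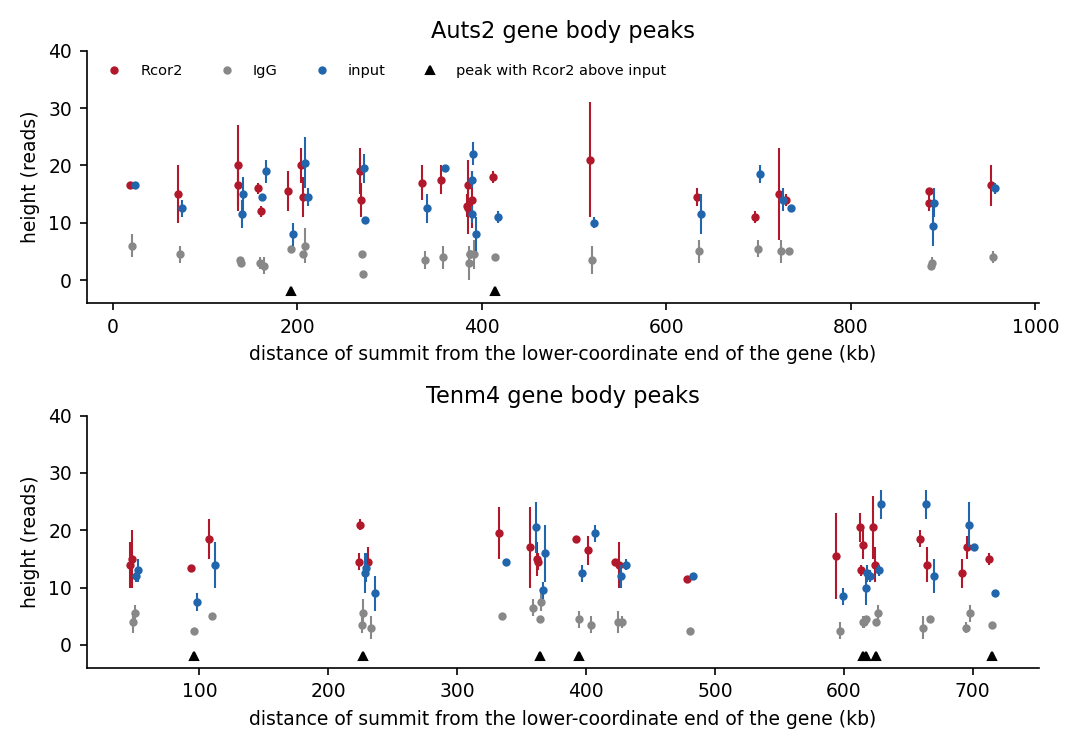
Heights (reads, vertical axis) at each gene body peak of Auts2 (top) and Tenm4 (bottom) by distance of its summit from the lower-coordinate end of the gene (kb, horizontal axis). Points are the mean of 2 libraries and lines join the 2 replicates. For legibility, Rcor2 (red) is shifted to the left and input (blue) to the right, while IgG (grey) is at the summit. Triangles mark the 2 and 8 peaks with Rcor2 above input. At several selected peaks, such as that at 163.5 kb in Auts2, input lies above Rcor2.

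The RNA libraries ask how the genes that carry these peaks differed when Rcor2 was deleted, a measure the rule did not use. They held 27674987 to 30270598 reads recovered from the deposited normalized counts. Transcripts of the targeted gene, Rcor2, were counted at 7901 and 7257 (normalized counts, controls) against 6363 and 6840 (cKO). The groups did not overlap, but the log2 difference of -0.20 (SE 0.057) did not pass (limma adjusted p 0.0541). Rcor2 passed in the authors' deposited table (adjusted p 0.0444), with DESeq2 (adjusted p 0.0488) and without cKO replicate 2 (limma adjusted p 0.0096). The sources used here do not name the deleted exons, and a count over the whole gene is a weak check of the labels. Genes were called at a limma adjusted p under 0.05 over all 14324 tested genes, on the log2(normalized count + 1) scale. The tissue carried the markers of cortex: 7 radial glia markers summed to 90291 to 99993 normalized counts over the 4 libraries and 8 neuron markers to 128549 to 179371, while 5 markers of cortical hem and choroid plexus summed to 1488 to 1907. In bulk tissue, fewer cells of a type and less RNA per cell cannot be told apart.

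Of the 924 genes, 872 were in the RNA table and 827 passed the filter on low counts. Of these 827, 103 were higher in the cKO (12.5%) and 131 lower (15.8%), and 593 did not pass. Over all tested genes, 6.16% were called higher and 8.29% lower. Of the 827, the 541 with no above-input gene body peak were higher in 10.9% and lower in 14.4%. The 286 that also held an above-input one were higher in 15.4% and lower in 18.5%. Genes with above-input gene body peaks only showed a like picture, with 42 of 444 higher (9.46%) and 63 lower (14.2%). Genes with a peak of any class were higher in 11.1% and lower in 10.6% of 2794, and genes with no peak in 4.95% and 7.75% of 11530. The difference between these groups was not tested, since genes are not replicates. The direction was mixed: the median log2 difference of the 827 genes was 0.01, against -0.01 over all tested genes.

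Gene length moved with these shares. Among genes spanning over 300 kb, 28.8% of the 208 with a selected peak were lower, and 28.0% of the 318 without one. For spans of 100 to 300 kb the lower shares were 15.0% and 15.1%, and for 30 to 100 kb 7.42% and 8.54%. The share called lower was thus near that of other genes of like span, except under 30 kb, where it was 10.3% of 87 genes against 5.44%. The share called higher was above that of other genes in each class of span: 11.5% against 5.52% under 30 kb, 14.8% against 6.01% at 30 to 100 kb, 14.3% against 7.0% at 100 to 300 kb and 7.21% against 5.03% above. Expression moved with it as well, since the genes with selected peaks had a median of 1679 normalized counts against 832.8 over all tested genes. Among genes of 1000 to 10000 counts, 15.6% were higher and 19.7% lower, against 7.55% and 10.9% of the other genes, and at 100 to 1000 counts 12% and 12.9% against 5.76% and 6.86%. Above 10000 counts the shares were 6.56% and 21.3% against 3.75% and 15.5%. At 10 to 100 counts they were not above those of the other genes, with 2.2% higher and 1.1% lower against 2.24% and 1.93%. Most of the other genes in these comparisons held no peak of any class, as 11530 of all 14324 tested genes held none. The part of length and of expression in these shares was not tested further.

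**Figure D4:**
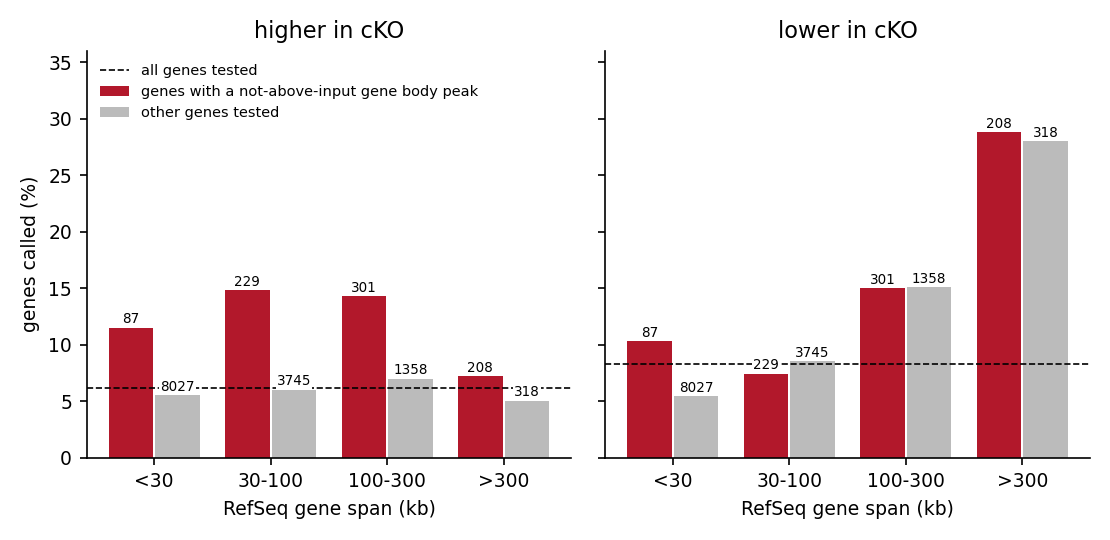
Share of tested genes called (limma adjusted p under 0.05, percent, vertical axes) higher (left) and lower (right) in the cKO, by RefSeq gene span (kb, horizontal axes). Red bars are genes with a gene body peak at which Rcor2 was not above input and grey bars all other tested genes, with the number of genes above each bar; dashed lines mark 6.16% and 8.29%. The lower share is greatest above 300 kb in both kinds of gene, at 28.8% and 28.0%.

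These counts rest on both controls. Without control replicate 1, 7 genes with a selected peak were higher and 20 lower, and without control replicate 2, 7 and 19, since the spread then comes from the cKO libraries alone. Over all tested genes the shares were then 0.440% higher and 0.761% lower, and 0.405% and 0.572%. Without cKO replicate 1 the numbers fell and without cKO replicate 2 they rose, and the shares over all tested genes moved the same way. The median log2 difference of genes with a selected peak was then -0.009 and 0.008. Over all tested genes it was -0.012 and -0.015.

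The share of called genes was not greatest among genes with the most selected peaks. Of 574 genes with 1 selected peak, 12.2% were higher and 15.0% lower, and of 139 with 2 the shares were 13.7% and 19.4%. Of the 29 genes with 5 or more, 3 were higher and 2 lower. Auts2, with the most peaks, had 6805 and 6759 normalized counts (controls) against 6171 and 6114 (cKO). The groups did not overlap, but the log2 difference of -0.14 (SE 0.042) did not pass (limma adjusted p 0.0565). Tenm4 had 25364 and 26526 against 30870 and 28764 and was called higher (log2 0.20, SE 0.053, limma adjusted p 0.0418), a call lost with edgeR (adjusted p 0.0719), with a replicate block (limma adjusted p 0.0566), with no filter on low counts (limma adjusted p 0.0501) and without any 1 of control replicate 1, control replicate 2 and cKO replicate 1 (limma adjusted p 0.253, 0.134 and 0.154). Myo10 rose from 2710 and 2719 to 3822 and 3368 (log2 0.40, SE 0.063, limma adjusted p 0.00791), but did not pass without either control (limma adjusted p 0.066 in both). Nfia had 22812 and 24443 against 24797 and 22552, Ephb2 had 9640 and 9736 against 9914 and 9922, and Slc14a2 had 442.7 and 409.7 against 417.5 and 431.6, and none of these 3 passed.

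Among the 827 genes, Rbfox1 and Nav3 had the smallest p-values of the falls. Rbfox1, a splicing factor of neurons with 3 selected peaks, had 1835 and 1882 normalized counts (controls) against 1038 and 1149 (cKO) (log2 -0.77, SE 0.065, limma adjusted p 0.0027). Nav3, a microtubule-guiding protein of migrating cells, had 3417 and 3431 against 1890 and 2186 (log2 -0.75, SE 0.069, limma adjusted p 0.0027). Tox, a DNA-binding protein of the high mobility group box family, had 425.2 and 401.1 against 185.1 and 218.2 (log2 -1.04, SE 0.12, limma adjusted p 0.00429). Groups that do not overlap were a condition for these named genes. In each of the 3, cKO replicate 1 lay further below the controls than cKO replicate 2. Ntm, Ppp2r2b, Nrxn3, Dscam, Grik3, Pcdh9 and Robo2 also fell, by 1.38, 0.64, 0.64, 0.63, 0.55, 0.50 and 0.48 on the log2 scale. They encode an adhesion molecule, a phosphatase subunit, a neurexin, a neuronal adhesion protein, a kainate receptor, a protocadherin and a Slit receptor. All 10 of these falls passed without either control in turn.

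Eya2, Nfic and Nxn led the rises. Eya2, a transcriptional coactivator and phosphatase of developing tissues, had 189.2 and 185.9 normalized counts (controls) against 366.1 and 350.4 (cKO) (log2 0.93, SE 0.11, limma adjusted p 0.00429). Nfic, of the same transcription factor family as Nfia, had 1095 and 1079 against 1655 and 1524 (log2 0.55, SE 0.062, limma adjusted p 0.00429). Nxn, a redox regulator that binds the Wnt transducer Dishevelled, had 1991 and 2037 against 2766 and 2668 (log2 0.43, SE 0.050, limma adjusted p 0.00429). Both cKO libraries were above both controls in each, which the choice of these named genes required. These 3 of the 10 rises passed without either control in turn, and the other 7 did not.

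Of the other rises, Hspg2, Fstl1 and Antxr1 encode secreted or matrix-binding proteins. Hspg2, which encodes the basement membrane proteoglycan perlecan, had 3282 and 3638 normalized counts (controls) against 6444 and 5134 (cKO) (log2 0.74, SE 0.099, limma adjusted p 0.00596, and 0.052 without control replicate 1). The secreted glycoprotein gene Fstl1 rose by 0.44 and the collagen receptor gene Antxr1 by 0.48 on the log2 scale, and each lost its call without 1 of the controls (limma adjusted p 0.053 for both). Markers of meninges and mesenchyme moved with these genes: the summed normalized counts of 5 markers were 1071 and 912.4 (controls) against 5490 and 1495 (cKO), most of the first cKO value being Col1a1 with 2442 and Col1a2 with 2096. Col1a1 and Dcn were called higher, Col1a2, Foxc1 and Lum were not, and Lum had 13.7 counts in cKO replicate 2. Dcn, which encodes the matrix proteoglycan decorin, itself held a selected peak and had 284.8 and 331.9 against 694.1 and 411.1. The part of these cells in the rises was not tested. Mast4, Alpk1, Rassf4 and Rhbdl3 rose by 0.53, 0.50, 0.48 and 0.40, and Mast4, Rassf4 and Rhbdl3 did not pass without either control (limma adjusted p 0.052 to 0.06), nor Alpk1 without control replicate 2 (limma adjusted p 0.06).

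**Figure D5:**
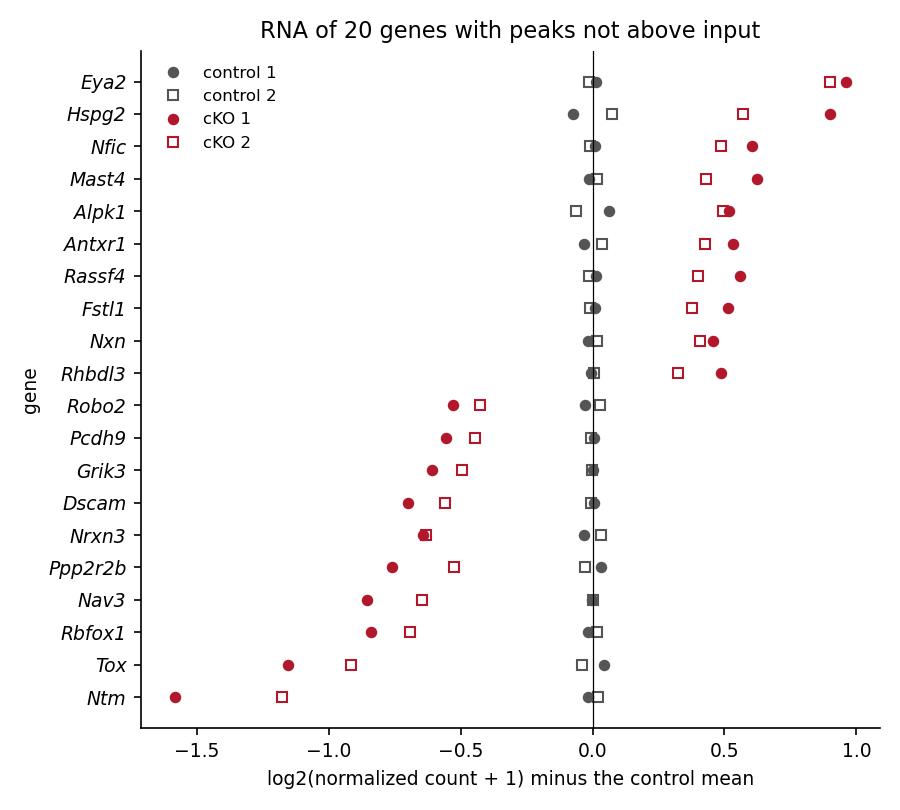
RNA level of the 10 rises and 10 falls with the smallest adjusted p among genes with peaks not above input, as log2(normalized count + 1) minus the control mean (horizontal axis), with 1 gene per line. Each point is 1 library: control (grey) and cKO (red), replicate 1 filled and replicate 2 open. Genes were kept only if control and cKO values did not overlap, so the cKO points lie on 1 side of both controls by choice. The mean differences run from 0.93 for Eya2 to -1.38 for Ntm.

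Genes were then read by role, from 8 lists of function with 363 genes in all, of which 94 held a selected peak. Over all 14324 tested genes, 827 held one, 6.16% were called higher and 8.29% lower, and each list is read beside these shares. Of 20 listed members and partners of the CoREST complex, Kdm1a had 1 selected peak, the corepressor Ctbp2 had 2 and the scaffold Gse1 had 4. Kdm1a, the demethylase, had 12549 and 12528 normalized counts (controls) against 11499 and 12028 (cKO). Gse1 had 5123 and 5341 against 6217 and 5571. None of the 3 passed (limma adjusted p 0.204 for Kdm1a, 0.0939 for Gse1 and 0.685 for Ctbp2), although the groups of Kdm1a and Gse1 did not overlap. Gse1 passed without cKO replicate 2 (limma adjusted p 0.00549).

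Of 45 neuronal genes listed as targets that Rest silences in other cells, 6 held a selected peak, and 4 of those 6 fell and 0 rose. On the whole list 29 of 44 tested fell. Markers of neurons fell too, 8 of 8, from sums of 177508 and 179371 normalized counts to 128549 and 141244. Of 5 markers of ventrally born interneurons 3 fell, from sums of 1819 and 1942 to 1158 and 1204. The part of these markers in the falls was not tested. Elavl3, an RNA-binding protein of neurons, had 10674 and 10507 normalized counts (controls) against 8580 and 8616 (cKO) (log2 -0.30, SE 0.042, limma adjusted p 0.00634). The adhesion gene Nrcam fell by 0.29, the calcium pump gene Atp2b2 by 0.25 and Nrxn3 by 0.64 on the log2 scale. The potassium channel gene Kcnh1 and the synaptotagmin gene Syt7, at -0.24 and 0.17, did not pass. Without either control, Elavl3, Nrcam and Atp2b2 did not pass (limma adjusted p 0.06 to 0.126).

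Synaptic adhesion and other long neuronal genes held the most selected peaks, 65 in 25 of 50 genes, 24 of them in Auts2. Of the 25 genes, 12 fell and 2 rose, with a median log2 of -0.29, and on the whole list 21 of 50 fell and 2 rose. Of all tested genes spanning over 300 kb, 208 held a selected peak and 318 did not, and 28.8% and 28.0% of them were lower. Ntm, an adhesion molecule of the IgLON family, had 278.9 and 286.5 normalized counts (controls) against 93.58 and 124.3 (cKO) (log2 -1.38, SE 0.16, limma adjusted p 0.00429). Its relative Opcml fell by 0.66, the neuregulin receptor gene Erbb4 by 0.53 and the delta-catenin gene Ctnnd2 by 0.40. Cntnap2, a neurexin relative with 4 selected peaks, and the kainate receptor gene Grik2 were the 2 that rose. Cntnap2 had 3423 and 3108 against 3736 and 3965 (log2 0.24, SE 0.060, limma adjusted p 0.0333). Whether the calls of Cntnap2 and Grik2 hold without either control is not given here. The part of gene length and of the neuron markers in these peak counts and falls was not tested either.

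Among axon guidance genes, 23 of 53 held 45 selected peaks, and 10 of the 23 fell and 4 rose, with 18 and 7 of 53 on the whole list. The Slit receptor gene Robo1 had 7885 and 7300 normalized counts (controls) against 5580 and 5997 (cKO) (log2 -0.39, SE 0.056, limma adjusted p 0.00667, and 0.063 without control replicate 1). Robo2 also fell, as did the semaphorin gene Sema6d by 0.67 (limma adjusted p 0.058 and 0.051 without either control), the growth cone gene Gap43 by 0.55, the ephrin receptor gene Epha3 by 0.45 and the neuropilin gene Nrp2 by 0.28. The Slit ligands parted: Slit2 rose, from 4250 and 4331 to 6019 and 5310 (log2 0.40, SE 0.062, limma adjusted p 0.00778), and Slit3, with 5 selected peaks and no above-input one, fell, from 876.7 and 840.0 to 674.6 and 692.0 (log2 -0.33, SE 0.069, limma adjusted p 0.0184). Slit1, with 3 selected peaks, had a log2 difference of 0.17 that did not pass (limma adjusted p 0.161). The other rises were Boc, a co-receptor of hedgehog, the netrin receptor gene Unc5a and the ephrin receptor gene Ephb3. Draxin and the netrin receptor gene Dcc, with 4 and 3 selected peaks, had log2 differences of -0.03 and -0.02 and did not pass.

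Of 59 cortical transcription factors, 17 held 47 selected peaks, and 3 of the 17 fell and 2 rose. On the whole list 16 fell and 17 rose. Bcl11b, a factor of subcortical projection neurons, had 11892 and 11995 normalized counts (controls) against 7827 and 9664 (cKO) (log2 -0.46, SE 0.086, limma adjusted p 0.0127). Myt1l, a transcription factor that upholds neuronal identity, had 5385 and 6053 against 3348 and 3858 (log2 -0.67, SE 0.078, limma adjusted p 0.00429). Sox5, a factor of deep-layer neurons, fell by 0.33. Gli3, a hedgehog effector of the dorsal midline, had 6168 and 6581 against 8100 and 7438 (log2 0.28, SE 0.056, limma adjusted p 0.0152), and the Wnt effector Tcf7l1 rose by 0.52 (SE 0.14, limma adjusted p 0.0484). The nuclear factor I genes Nfia, Nfib and Nfix held 9, 5 and 2 selected peaks, and none of the 3 passed (log2 0.00, -0.08 and -0.09). Bcl11b, Sox5 and Gli3 did not pass without either control (limma adjusted p 0.051 to 0.13). Otx1, a homeobox factor outside this list whose peak sequence is given above, had 726.5 and 744.8 against 985.1 and 870.1 (log2 0.33, SE 0.079, limma adjusted p 0.0283).

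Of 51 genes of the Wnt, Bmp, Notch, hedgehog and Fgf pathways, 12 held 17 selected peaks, and 4 of the 12 rose and 0 fell. Over all tested genes 6.16% were called higher and 8.29% lower, so 0 falls among 12 genes is near the overall share. On the whole list 14 of 50 tested genes rose and 0 fell. Markers of progenitors moved with them: 3 of 7 radial glia markers rose and 0 fell, with sums of 92047 and 90291 against 99993 and 98742, and 2 of 3 intermediate progenitor markers rose, with sums of 23130 and 23222 against 25615 and 25392. Their part in these rises was not tested. Axin2, a feedback inhibitor that Wnt signalling induces, had 3032 and 3050 normalized counts (controls) against 3983 and 3724 (cKO) (log2 0.34, SE 0.050, limma adjusted p 0.00706). Lef1, a DNA-binding effector of the same pathway, had 1438 and 1370 against 1940 and 1713 (log2 0.38, SE 0.070, limma adjusted p 0.0125). In the Notch pathway, the receptor Notch1, whose peak was among the highest over IgG, had 12699 and 13487 against 16219 and 15468 (log2 0.28, SE 0.050, limma adjusted p 0.0115). The glycosyltransferase gene Lfng, which tunes Notch for its ligands, had 2008 and 1979 against 2448 and 2506 (log2 0.31, SE 0.049, limma adjusted p 0.00778). The ligand Jag1 and the receptor Notch2, each with 1 selected peak, had log2 differences of -0.18 and 0.16 and did not pass. Bmp6 had the largest difference of the 12 at 0.85 (SE 0.26) and did not pass (limma adjusted p 0.0613). Without either control none of the 4 rises passed (limma adjusted p 0.063 to 0.111).

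Chd7 was the only chromatin regulator on its list with a selected peak to be called. Of 50 on the list, 10 held 19 selected peaks, and 1 rose and 0 fell. On the whole list 4 rose and 1 fell. Chd7, a chromatin remodeler of progenitors, had 13425 and 13533 normalized counts (controls) against 18410 and 16136 (cKO) (log2 0.35, SE 0.063, limma adjusted p 0.0109), but did not pass without either control (limma adjusted p 0.085 and 0.077). Arid1b, Jarid2 and Arid1a, of the chromatin remodelling and Polycomb complexes, had log2 differences of 0.09, 0.09 and 0.11 that did not pass. No cell cycle or replication gene of 40 held a selected peak. Over all tested genes 827 of 14324 held one, a small share, so the absence in a list of 40 is not read as a result. Of the 40, 27 were called higher in the cKO, against 6.16% over all tested genes.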

How the data were processed

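The analysis joined the authors' peak table to their RNA table by gene symbol. Per the file headers, each peak has a height (signal, as read coverage) in 6 libraries, a pileup, a fold (ratio) over IgG, and −log10 values of p and q in columns whose deposited headers were spoiled. The authors' normalized count (a signal), log2 fold change, standard error, test score and p-value per gene are deposited too. HISAT2 2.1.0, Trim Galore and mm10 come from the submitters' processing notes. The peak caller, its settings, the counter, the strand use and the rule for location classes and gene names are not stated in the sources used here, so RNA of antisense or overlapping genes cannot be told apart.

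Peaks were selected by the rule in the opening. limma 3.58.1 (trend, R 4.3.3, no replicate block, two-sided) was fitted to log2(normalized count + 1) over 14324 genes with a mean of at least 10, which left out 2014, with Benjamini-Hochberg adjustment and a threshold of 0.05. Residual and prior degrees of freedom were 2 and 6.21. With 2 libraries per group, the smallest p an exact permutation test can give is 0.333. The fit was run on simulated counts with the same dispersion for every gene and changes larger than those of most named genes. That run does not bear on how firm these calls are. Whole reads were recovered for 100% of values (tolerance 0.001), and on these reads edgeR 4.0.16 called 815 genes higher and 927 lower, and DESeq2 1.42.0 served as another alternative. Depth was 27674987 to 30270598 reads per RNA library. Intervals of shares are 95% Clopper-Pearson. Of the 924 genes, 866 matched by name and 6 by synonym.

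The members and lists were chosen with earlier results of these data known. Named peaks were the 6 highest in fold, the 6 lowest in ratio of Rcor2 to input, 4 just inside and 4 just outside the rule, and 4 with the greatest pileup. Named genes were Rcor2, the 6 with the most selected peaks, up to 4 per list, and 10 rises and 10 falls. These rises and falls had the smallest adjusted p (ties by unadjusted p) among genes with a mean of at least 50. Control and cKO values that did not overlap and a name not of a predicted gene were required of them too. Other list members named beside these, the Fto peak, Otx1 and Dcn were chosen after their values were seen. Some items that these rules chose are not reported here. Python 3.11.15 and matplotlib 3.10.9 drew the plots. Sequences of the peaks outside RefSeq windows were not analysed here.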

Additional observations from a re-analysis of the deposited data

How the results depend on the processing

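The number of selected peaks was 1249 with ties left out and 1722 with heights divided by each library's median, but 567 when mean heights were compared, 225 when both Rcor2 heights had to be at or below both inputs, 695 among peaks with a −log10 q of at least 5 and 127 among peaks with a fold of at least 5. Leaving out each chromatin library in turn gave 558 to 1399 peaks; the 558 came without Rcor2 replicate 1. Leaving out each RNA library in turn gave 7 to 175 higher and 19 to 156 lower genes with a selected peak, and a median log2 difference of -0.0104 to 0.0108 (0.0066 with all libraries). Smaller sets of genes gave fewer calls, at shares to be read beside 12.5% higher and 15.8% lower for all 827 genes. Of 427 tested genes whose peaks were all selected, 43 were higher (10.1%) and 70 lower (16.4%). Genes of selected peaks with a −log10 q of at least 5 gave 54 (11.4%) and 74 (15.6%) of 473. Genes of peaks selected on mean heights gave 50 (13.3%) and 54 (14.3%) of 377. Over all tested genes the shares were 6.16% and 8.29%. The median was 0.0224 with DESeq2, 0.0213 with TMM scaling, 0.0218 with edgeR, 0.0238 with quantile normalization and 0.0204 in the authors' deposited table. With a replicate block, 107 genes were higher and 128 lower with a median of 0.0066; same-numbered libraries had deviations that correlated at 0.242 across genes, and with 2 pairs they share only a number. Of the 36 named genes that were called, 20 lost the call without control replicate 1, 19 without control replicate 2 and 1 each with edgeR, with no filter, with a replicate block or without cKO replicate 1; no sign changed. Of the 10 named genes that were not called, 1 each gained the call with DESeq2, in the authors' deposited table and with a replicate block, and 3 without cKO replicate 2. The depth of the chromatin libraries was not analysed here and limits every statement on heights.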
